A study of Homo sapiens with 6 samples.

Results

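The proteasome subunit and assembly genes were taken as the protein coding genes whose name begins with PSMA, PSMB, PSMC, PSMD, PSME, PSMF or PSMG and a number, 49 of the 58735 genes in the deposited table. Their RNA was sequenced in 6 libraries from cells that the labels call CCRF-SB, a human B-lymphoblast line from acute lymphoblastic leukaemia. The 3 siANXA1 libraries are of cells infected with a lentivirus carrying ANXA1-silencing RNA; ANXA1 is the gene of a calcium-dependent phospholipid-binding annexin, and these libraries are labelled ANXA1 down-regulated. The 3 siControl libraries came from cells given an empty vector and are labelled WT. All 6 are labelled day 5 and were grown in RPMI-1640 with serum, and RNA was taken with Trizol for TruSeq libraries. The control vector is described as empty, so it carries no non-targeting sequence. Puromycin was used to select the silenced lines, and nothing says whether the replicates were separate cultures. P-values therefore measure the spread between these libraries, which may be technical. The study asked, by its title, about growth and drug resistance in B cell leukaemia.

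The proteasome is the protease that degrades ubiquitin-tagged proteins. Its 20S core is a stack of outer rings of alpha subunits, which gate the entrance, and inner rings of beta subunits, of which PSMB5, PSMB6 and PSMB7 carry the active sites. The 19S cap adds a ring of ATPases that unfold substrates and a set of non-ATPase subunits that bind and cleave ubiquitin chains. In lymphoid cells and under interferon gamma, PSMB8, PSMB9 and PSMB10 take the places of PSMB5, PSMB6 and PSMB7 and form the immunoproteasome. Proteasome inhibitors used in blood cancers bind the site of PSMB5.

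Rows with a gene name summed to 44148505, 21333951 and 37057161 counts in siANXA1 replicates 1 to 3 and to between 34758946 and 41012577 counts in siControl. ANXA1 read 1606, 1723 and 1712 CPM (counts relative to the library's total, after scaling between libraries) in siANXA1 replicates 1 to 3, against 3696, 3696 and 3756 CPM in siControl replicates 1 to 3. The groups were far apart, with 0.45 of the siControl mean in siANXA1 (log2 fold change -1.14 ± 0.0932, SE; edgeR quasi-likelihood adjusted p = 0.0571, just outside the 0.05 threshold). The labelled B cell identity was not borne out by its markers. Marker CPM are relative to the library's total alone, without the scaling between libraries. Of 14 B cell genes, 3 reached a mean of 1 CPM, while VPREB1, IGLL1 and DNTT were at 0 in all libraries. The 14 summed to between 7.69 and 12.1 CPM in siANXA1 and between 11.5 and 17.4 CPM in siControl. All 13 erythroid genes reached 1 CPM and summed to between 5953 and 7009 CPM in siANXA1 and between 2085 and 3541 CPM in siControl. The cells are therefore called by their labels below. The erythroid sum separated the groups, also without HBE1, the embryonic globin that carried most of the difference (3235, 2196 and 2939 CPM in siANXA1 against 4.83, 646 and 9.44 CPM in siControl). Without HBE1 the margin was narrow, with siANXA1 replicate 3 at 3228 CPM and siControl replicate 3 at 3085 CPM. Gene by gene, 5 of the 13 lay higher in siANXA1 without overlap, against 7.41% of all genes tested, and 8 overlapped. Of the 5, GYPB was only just apart, with siANXA1 replicate 3 at 9.96 CPM and siControl replicate 3 at 9.55 CPM. KLF1, an erythroid transcription factor, read 151, 67.5 and 152 CPM in siANXA1 against 43.9, 37.9 and 161 CPM in siControl, so siControl replicate 3 stood at the level of siANXA1. The part of these genes in any proteasome value was not tested. In bulk RNA, fewer cells of a type and less RNA per cell cannot be told apart.

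Most proteasome genes were abundant and differed little between the groups. Of the 49, 45 passed the filter on low counts, and none of these passed the edgeR threshold, where 0.0111% of 17947 genes tested did (2 genes). At an unadjusted p under 0.05, PSMD12, PSMB6 and PSMA2 were higher in siANXA1 and PSME1 was lower, 3 of 45 and 1 of 45 genes, against 3.40% and 4.52% of all genes. DESeq2 also called 0 of the 45, against 1.67% of all genes. At an unadjusted DESeq2 p under 0.05 there were 4 of 45, against 10.8% of all genes. The common biological coefficient of variation was 0.423.

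The signs of the small differences were uneven. The log2 fold change of siANXA1 over siControl was positive for 37 of 45 proteasome genes (82.2%), against 50.5% of all genes tested and 58.3% of the 4262 genes with a mean of 50 CPM or more. The median was 0.12 over the proteasome genes, with the middle of the distribution between 0.04 and 0.30, and 0.01 over all genes. Over the genes with a mean of 50 CPM or more it was 0.06, with the middle between -0.14 and 0.25. With upper quartile scaling, which moved the median of all genes to -0.05, 30 of 45 were positive and the median was 0.07. The groups did not overlap in 6 of 45 genes that were higher and 1 of 45 that was lower, against 7.41% and 7.24% of all genes. PSMB1, among the higher genes, was only just apart. The median depended on single libraries. It was 0.05 without siControl replicate 2, 0.08 without siControl replicate 1, 0.25 without siControl replicate 3 and 0.21 without siANXA1 replicate 2.

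**Figure D1:**
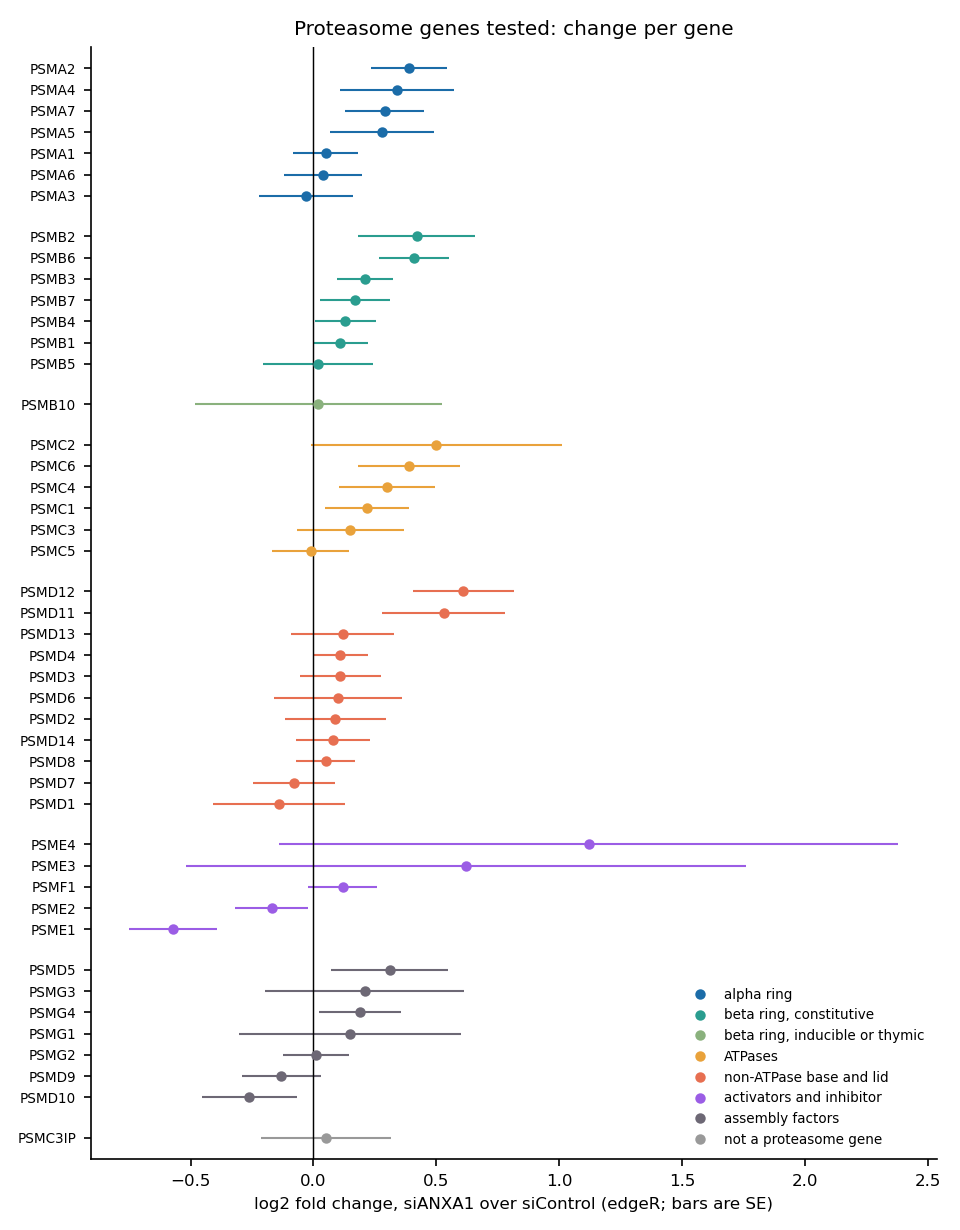
Log2 fold change of siANXA1 over siControl for the 45 proteasome genes tested, grouped by role, with the standard error from edgeR as bars. Points lie mostly just right of 0, PSME1 lies lowest at -0.57, and the widest bars are those of PSME3 and PSME4.

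The levels also varied by library within each group. In siControl, replicate 3 held the highest level of its group for 37 of 45 genes, and in siANXA1, replicate 2 held the lowest level of its group for 31 of 45. The same counts were not made over other genes. The median deviation from the mean over 6 libraries, on the scale log2(CPM + 1), was 0.10, -0.07 and 0.17 in siANXA1 replicates 1 to 3 and -0.16, -0.18 and 0.14 in siControl replicates 1 to 3. siControl replicate 3 stood with siANXA1 replicates 1 and 3, above the other siControl libraries. The same signs were seen over the 4262 genes with a mean of 50 CPM or more. Their medians were 0.07, -0.03 and 0.07 in siANXA1 replicates 1 to 3 and -0.09, -0.07 and 0.10 in siControl replicates 1 to 3. Of the classes with more than 1 gene tested, the ATPases spread widest, from -0.29 in siControl replicate 2 to 0.28 in siANXA1 replicate 3. siANXA1 replicate 2 is also the library with the fewest counts, and the part of depth in its low values was not tested.

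**Figure D2:**
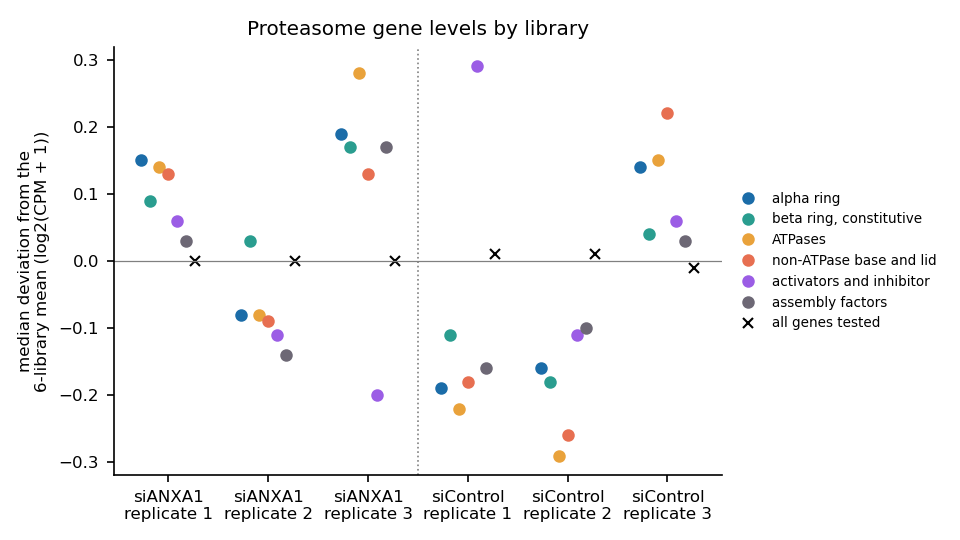
Median deviation of log2(CPM + 1) from the 6-library mean for 6 proteasome classes (circles) and for all genes tested (crosses), by library. All classes but the activators and inhibitor lie below 0 in siControl replicates 1 and 2 and above 0 in siControl replicate 3. The activators and inhibitor stand at -0.20 in siANXA1 replicate 3 and 0.29 in siControl replicate 1, and all genes lie between -0.01 and 0.01. Genes with a mean of 50 CPM or more, which are not drawn, are given in the text.

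The 49 genes took up 0.895%, 0.81% and 0.901% of gene counts in siANXA1 replicates 1 to 3, against 0.728%, 0.663% and 0.861% in siControl replicates 1 to 3. The groups overlapped. Levels of different genes were compared as TPM, counts divided by transcript length and scaled to the same sum in each library. Of the subunits, the non-catalytic beta genes PSMB1, PSMB3 and PSMB4 were highest, at a mean of 701, 595 and 532 TPM over 6 libraries, and all libraries of PSMB4 lay above all those of the next gene, PSMD4 (417 TPM). Below these the order was not resolved. Of 48 neighbouring pairs in the order, 3 were separated in all libraries, the other 2 being PSMB10 over PSMB9 and PSMB8 over the undetected PSMA8. PSMD12, a lid gene, had the lowest mean of the constitutive core and cap subunits, at 74.6 TPM.

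The alpha ring, whose genes encode the outer rings of the core, summed to 1998, 1883 and 2100.2 TPM in siANXA1 replicates 1 to 3 and to 1597, 1607 and 1969 TPM in siControl replicates 1 to 3, so siControl replicate 3 overlapped siANXA1. Of its 8 genes, 7 were tested, 0 passed and 6 were positive (median log2 fold change 0.28). PSMA8, the testis-specific alternative to PSMA7, had 0 counts in all 6 libraries, which allows up to 0.068 to 0.141 CPM by library (3 counts, counting error only). PSMA4, PSMA5 and PSMA7 had log2 fold changes of 0.34, 0.28 and 0.29, and PSMA1, PSMA3 and PSMA6 lay between -0.03 and 0.05.

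PSMA2, which encodes the alpha 2 subunit, read 305, 228 and 301 CPM in siANXA1 replicates 1 to 3, against 208, 217 and 212 CPM in siControl replicates 1 to 3. The 3 siControl libraries lay close together, and the lowest siANXA1 library, replicate 2, lay just above them. The log2 fold change was 0.39 ± 0.154 (SE; edgeR adjusted p = 0.627). The split among its transcripts also differed. Its coding transcript ENST00000223321 read 220.4, 138 and 241 CPM in siANXA1 replicates 1 to 3, against 109, 97.4 and 108 CPM in siControl replicates 1 to 3. A transcript annotated for nonsense-mediated decay, ENST00000436986, read 62.3, 73.7 and 41.4 CPM in siANXA1, against 85.6, 110.5 and 88.6 CPM in siControl. The groups separated in opposite directions, so the share of counts on transcripts that are not protein coding was 23.3%, 36.4% and 16.1% in siANXA1, against 43.7%, 53.7% and 46.6% in siControl. With protein coding transcripts alone, the log2 fold change of PSMA2 was 0.94 (edgeR adjusted p = 0.621). PSMA2 overlaps MRPL32 on the other strand, and without a stated strand setting their shared reads cannot be told apart.

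The window from 250 bases before to 50 bases after the PSMA2 start (chr7:42932125-42932424, GRCh38.p14, minus strand, RefSeq) is shown because it lies ahead of the alpha gene with the lowest p, with the CCAAT box at position -84 in capitals.
PSMA2: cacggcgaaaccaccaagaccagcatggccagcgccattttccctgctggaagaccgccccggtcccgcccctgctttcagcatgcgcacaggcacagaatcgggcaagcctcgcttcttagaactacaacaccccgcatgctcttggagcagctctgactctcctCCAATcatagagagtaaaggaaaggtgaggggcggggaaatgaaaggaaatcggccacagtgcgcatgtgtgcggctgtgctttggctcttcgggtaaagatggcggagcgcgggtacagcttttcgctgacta

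The constitutive beta ring, the inner rings that hold the active sites, was the class whose sum separated the groups, at 3003, 2922 and 3144 TPM in siANXA1 replicates 1 to 3 against 2576, 2474 and 2859 TPM in siControl replicates 1 to 3. The margin between siANXA1 replicate 2 and siControl replicate 3 was narrow. Summed with the alpha ring, these 2 libraries crossed, at 4806 and 4828 TPM. All 7 of its genes were tested and 0 passed. Of these, 7 had a positive fold change, against 50.5% of all genes and 58.3% of those with a mean of 50 CPM or more. Without overlap 3 were higher, PSMB1 only just, against 7.41% of all genes. With upper quartile scaling, PSMB5 turned to -0.04.

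PSMB6, the caspase-like catalytic subunit, read 100.2, 119 and 118 CPM in siANXA1 replicates 1 to 3, against 80.1, 85.6 and 87.2 CPM in siControl replicates 1 to 3. All siANXA1 libraries lay above all siControl libraries (log2 fold change 0.41 ± 0.142, SE; edgeR adjusted p = 0.617). PSMB5, the chymotrypsin-like subunit, read 151, 104 and 175 CPM in siANXA1 against 149, 122 and 154 CPM in siControl. Its groups overlapped fully, at a log2 fold change of 0.02 ± 0.224 (SE). PSMB7, the trypsin-like subunit, read 209, 171 and 193 CPM in siANXA1 against 165, 159 and 185 CPM in siControl, with overlapping groups (log2 fold change 0.17). Of the non-catalytic subunits, PSMB3 averaged 267 ± 11.6 CPM in siANXA1 and 231 ± 6.63 CPM in siControl and PSMB1 396 ± 7.13 and 366 ± 22.2 CPM (SD, n = 3 each), neither overlapping. PSMB1 was only just apart, with siANXA1 replicate 3 and siControl replicate 3 both at 391 CPM after rounding. PSMB4 and PSMB2 overlapped, at log2 fold changes of 0.13 and 0.42.

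Of the immunoproteasome subunits, PSMB8 and PSMB9 were close to the detection limit. PSMB8, the inducible counterpart of PSMB5, had 6, 4 and 7 counts in siANXA1 replicates 1 to 3 and 9, 17 and 3 counts in siControl replicates 1 to 3. PSMB9, the counterpart of PSMB6, had 7, 5 and 0 counts in siANXA1 and 20, 3 and 6 counts in siControl. Neither passed the filter, and neither separated the groups. Coding transcripts of PSMB8 held 6 counts in siControl replicate 2 and 0 in every other library. Those of PSMB9 held 7, 3 and 0 counts in siANXA1 and 12, 0 and 0 counts in siControl. The percentages that follow use all transcripts. PSMB9 was 0.172%, 0.148% and 0% of the PSMB6 level per length in siANXA1, against 0.538%, 0.0276% and 0.239% in siControl (exact permutation test, two-sided, p = 0.4). PSMB8 was 0.0945%, 0.239% and 0.0546% of PSMB5 in siANXA1, against 0.168%, 0.395% and 0.0586% in siControl (exact permutation p = 0.6). The smallest p that 3 against 3 libraries allow is 0.1, and 3 pairs were compared (Benjamini-Hochberg adjusted p = 0.9 for both by the exact permutation test).

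PSMB10, the counterpart of PSMB7, passed the filter, at 19.7, 12.8 and 5.38 CPM in siANXA1 replicates 1 to 3 against 8.83, 11.3 and 17.1 CPM in siControl replicates 1 to 3, with overlapping groups. Of its counts, 92.9% lay on transcripts that are not protein coding, mainly on the retained intron transcript ENST00000570985. Its coding transcripts held 21, 8 and 32 counts in siANXA1 and 53, 39 and 42 counts in siControl. On coding transcripts alone PSMB10 was 0.232%, 0.305% and 0.449% of PSMB7 in siANXA1, against 0.652%, 0.538% and 0.564% in siControl. These did not overlap (exact permutation p = 0.1, the smallest possible; adjusted p = 0.3), but each rests on 8 to 53 counts. Over all transcripts the exact permutation p was 1 and the difference was -0.806 percentage points. PSMB11, the thymic subunit, had 0 counts in all libraries, with the same limit as PSMA8.

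**Figure D3:**
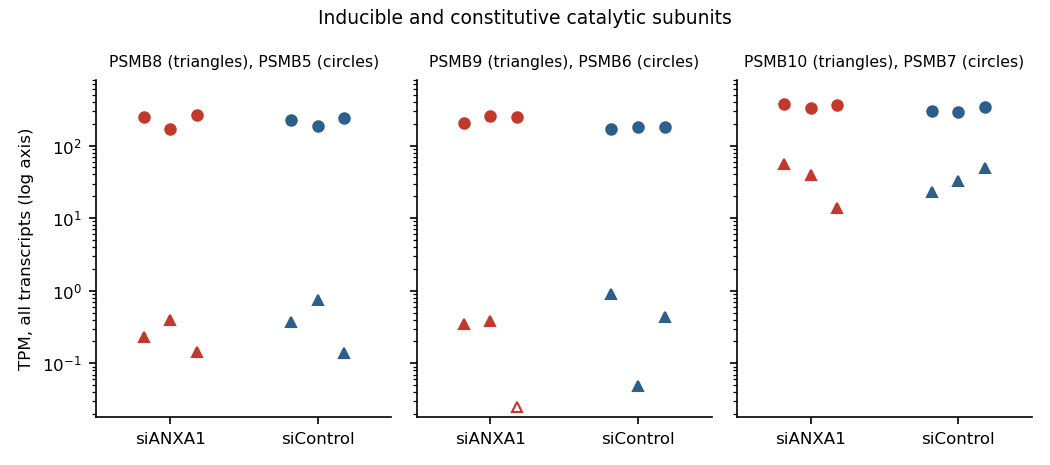
TPM per library on a log axis for each inducible catalytic subunit (triangles) and its constitutive counterpart (circles), in siANXA1 and siControl. PSMB8 and PSMB9 lie below 1 TPM in every library (the open triangle at the bottom stands for 0), PSMB10 lies between 13.6 and 56.6 TPM, and the constitutive subunits lie between 167 and 376 TPM.

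PSMB8 (chr6:32840717-32844703, minus strand, GRCh38) and PSMB9 (chr6:32844136-32859585, plus strand) lie with TAP1 in the MHC class II region. The annotated PSMB8 and PSMB9 genes overlap on opposite strands, and without a stated strand setting their shared reads cannot be told apart. PSMB10 lies at chr16:67934502-67937087 on the minus strand. TAP1, a peptide transporter subunit that overlaps the annotated PSMB9 gene on the other strand, read 2.35, 3.7 and 2.54 CPM in siANXA1 against 6.34, 4.56 and 1.59 CPM in siControl. TAP2, its partner, read 74.7, 80.7 and 73.2 CPM in siANXA1 against 86.3, 77.4 and 81.8 CPM in siControl. IRF1, an interferon-induced activator of immunoproteasome genes, read 5.11, 8.08 and 6.55 CPM in siANXA1 and 14.8, 12.3 and 7.79 CPM in siControl. None of these passed edgeR.

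The promoter windows of the inducible genes are shown because PSMB8 and PSMB9 were near 0 and PSMB10 had few coding counts, while their counterparts were abundant. Capitals mark the core of the interferon-stimulated response element (GAAA, any 2 bases, GAAA) in PSMB8 (chr6:32843998-32844297, minus strand, at position -4) and PSMB10 (chr16:67936801-67937100, minus strand, at -21). In PSMB9 (chr6:32853942-32854241, plus strand) they mark CCAAT at -243 and TGACNNNGC, the core of the antioxidant response element, at -148. Both strands were searched, positions count from the RefSeq start on GRCh38.p14, and for a match on the other strand the position is that of its first base as printed. PSMB8 has 2 RefSeq windows, and the window with more motif matches was printed, or the first listed if equal.
PSMB8: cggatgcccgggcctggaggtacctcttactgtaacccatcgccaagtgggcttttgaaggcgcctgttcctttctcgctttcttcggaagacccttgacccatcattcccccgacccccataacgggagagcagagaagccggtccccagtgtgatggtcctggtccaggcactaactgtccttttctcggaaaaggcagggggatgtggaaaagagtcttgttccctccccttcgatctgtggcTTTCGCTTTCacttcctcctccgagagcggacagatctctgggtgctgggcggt
PSMB9: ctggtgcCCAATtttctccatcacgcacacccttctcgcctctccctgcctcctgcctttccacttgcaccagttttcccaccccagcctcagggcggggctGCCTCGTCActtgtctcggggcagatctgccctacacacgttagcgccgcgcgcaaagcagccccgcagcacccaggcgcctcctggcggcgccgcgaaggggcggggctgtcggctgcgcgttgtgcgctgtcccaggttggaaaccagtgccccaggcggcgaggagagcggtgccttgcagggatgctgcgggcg
PSMB10: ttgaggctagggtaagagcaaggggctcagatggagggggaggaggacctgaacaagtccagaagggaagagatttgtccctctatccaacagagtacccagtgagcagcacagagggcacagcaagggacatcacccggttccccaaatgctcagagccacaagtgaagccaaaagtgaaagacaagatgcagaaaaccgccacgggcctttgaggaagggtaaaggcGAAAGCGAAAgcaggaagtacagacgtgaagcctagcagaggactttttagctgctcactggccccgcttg

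RefSeq windows of 300 bases were matched for 43 of 49 genes (all except PSMA7, PSMB1, PSMB6, PSMB7, PSMD4 and PSMG3). The interferon-stimulated core lay in those of 7 genes (16.3%), namely PSMA4, PSMB4, PSMB8, PSMB10, PSME1, PSME2 and PSMG4, against 4.38% of 27305 genes with a window. TGACNNNGC lay in 15 (34.9%), against 16.1%, and CCAAT in 21 (48.8%), against 39.7%. The background genes were not limited to protein coding ones, as the proteasome genes were, so the percentages may not be alike. A match is a description of letters, not a bound site, and no matches overlapped in the windows printed.

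The ATPases, which form the unfolding ring of the 19S base, were all tested, with 0 of 6 past the threshold and 5 positive (median log2 fold change 0.26). None separated the groups. PSMC6 read 151, 125 and 159.97 CPM in siANXA1 replicates 1 to 3, against 91.8, 101 and 140.1 CPM in siControl replicates 1 to 3. Only siControl replicate 3 overlapped siANXA1 (log2 fold change 0.39 ± 0.207, SE; edgeR adjusted p = 0.658). PSMC2 varied most, from 141 to 299.9 CPM in siANXA1 and from 80.7 to 258 CPM in siControl, and its counts moved among coding transcripts. ENST00000640277 read 0.828, 1.6 and 101 CPM in siANXA1 and 49.2, 25.3 and 83.4 CPM in siControl, and ENST00000435765 read 48.5, 87 and 0 CPM against 0.0479, 18 and 0 CPM. PSMC2 was named after its values were seen. PSMC1 and PSMC4 had log2 fold changes of 0.22 and 0.30, PSMC3 of 0.15 and PSMC5 of -0.01. PSMC1 has 13 annotated pseudogenes, whose counts came to 3.86% of its own. In PSMC4, 56.4% of counts lay on transcripts that are not protein coding.

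The non-ATPase subunits, which include the ubiquitin receptor PSMD4 and the deubiquitinase PSMD14, had 0 of 11 past the threshold and 9 positive, with a median log2 fold change of 0.10. They summed to 2728, 2507 and 2835 TPM in siANXA1 and 2214, 2175 and 2883 TPM in siControl, where siControl replicate 3 was the highest of all. The lid subunits PSMD12 and PSMD11 had the largest log2 fold changes of the class, and whether they differ from the other genes was not tested. PSMD12, a scaffold subunit of the lid, read 209, 153 and 197 CPM in siANXA1 replicates 1 to 3, against 103, 113 and 150.1 CPM in siControl replicates 1 to 3. The nearest libraries, siANXA1 replicate 2 and siControl replicate 3, nearly met. The log2 fold change was 0.61 ± 0.206 (SE; edgeR adjusted p = 0.614). In siANXA1 replicate 2 alone, part of the PSMD12 counts lay on ENST00000357146, with 1114 counts there and 0 in the other 5 libraries.

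PSMD11, which is placed beside PSMD12 in the lid, read 266, 251 and 344 CPM in siANXA1, against 174, 154 and 268 CPM in siControl. siControl replicate 3 overlapped siANXA1 (log2 fold change 0.53 ± 0.251, SE; edgeR adjusted p = 0.644). PSMD1, the largest base subunit, read 255, 215 and 279.6 CPM in siANXA1, against 214, 221 and 389.7 CPM in siControl. Its negative log2 fold change of -0.14 rested on siControl replicate 3 and was 0.19 without it. PSMD4 did not overlap, at 315 ± 12.9 CPM in siANXA1 and 291 ± 6.42 CPM in siControl (SD, n = 3 each), and PSMD2, PSMD3, PSMD6, PSMD7, PSMD8, PSMD13 and PSMD14 had log2 fold changes between -0.08 and 0.12 with overlapping groups.

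The PSMD12 window (chr17:67366528-67366827, GRCh38.p14, minus strand, RefSeq) is shown because this gene had the largest fold change of the tested subunits of the core and cap, with TGACNNNGC at position -165 in capitals.
PSMD12: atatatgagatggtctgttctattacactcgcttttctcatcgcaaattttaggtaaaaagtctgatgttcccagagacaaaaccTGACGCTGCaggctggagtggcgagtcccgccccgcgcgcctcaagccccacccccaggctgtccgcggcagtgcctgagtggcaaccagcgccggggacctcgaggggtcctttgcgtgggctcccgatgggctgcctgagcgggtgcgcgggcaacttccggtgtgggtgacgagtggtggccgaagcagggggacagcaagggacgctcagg

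The activators open the core without the 19S cap. PSME1 and PSME2 encode the alternating subunits of the interferon-inducible PA28 ring, PSME3 the nuclear PA28 gamma, PSME4 the single-chain activator PA200, and PSMF1 the inhibitor PI31. PSME1 (chr14:24136158-24138967, plus strand, GRCh38) read 33, 33 and 29 CPM in siANXA1 replicates 1 to 3, against 53.4, 47.4 and 40.2 CPM in siControl replicates 1 to 3. All siANXA1 libraries lay below all siControl libraries, and it was the only proteasome gene of those tested to do so. The log2 fold change was -0.57 ± 0.179 (SE; edgeR adjusted p = 0.605). PSME2 (chr14:24143362-24147570, minus strand) read 68.9, 60.8 and 57.3 CPM in siANXA1, against 73.9, 69.5 and 66.5 CPM in siControl. Here siANXA1 replicate 1 overlapped siControl (log2 fold change -0.17 ± 0.149, SE; edgeR adjusted p = 0.774). PSMF1 averaged 104 ± 6.92 CPM in siANXA1 and 95.7 ± 7.24 CPM in siControl (SD, n = 3 each).

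The PSME1 window (chr14:24135944-24136243, GRCh38.p14, plus strand, RefSeq) is shown because the gene was lower in all siANXA1 libraries, with TGACNNNGC at -86 and the interferon-stimulated core, on the other strand, at 6 in capitals. PSME2 also holds both motifs.
PSME1: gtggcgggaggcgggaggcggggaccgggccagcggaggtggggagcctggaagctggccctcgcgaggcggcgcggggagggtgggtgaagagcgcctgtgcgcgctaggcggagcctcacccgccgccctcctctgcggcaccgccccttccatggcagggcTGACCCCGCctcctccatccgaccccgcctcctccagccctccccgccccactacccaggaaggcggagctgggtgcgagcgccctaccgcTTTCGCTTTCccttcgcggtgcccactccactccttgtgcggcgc

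PSME3 and PSME4, described after their values were seen, were unstable between replicates. PSME3 read 309, 85.4 and 262 CPM in siANXA1 replicates 1 to 3 and 135, 5.88 and 285 CPM in siControl replicates 1 to 3. Its main coding transcript ENST00000293362 read 14.6 CPM in siANXA1 replicate 2 and 0.347 CPM in siControl replicate 2, against 111 to 299 CPM elsewhere. PSME4 read 355, 447 and 28.2 CPM in siANXA1 and 322, 33.4 and 25.2 CPM in siControl, so libraries of the same group differed 15.9-fold and 12.7-fold. In siANXA1 replicate 2, 222 CPM of PSME4 lay on ENST00000389993, annotated for nonsense-mediated decay, which was at 0 in the other 5 libraries. With SEs of 1.14 and 1.26, the log2 fold changes of 0.62 and 1.12 give no direction. Rows without a gene held 16.9% to 17.7% of all counts, and whether they hold reads of these genes was not tested.

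**Figure D4:**
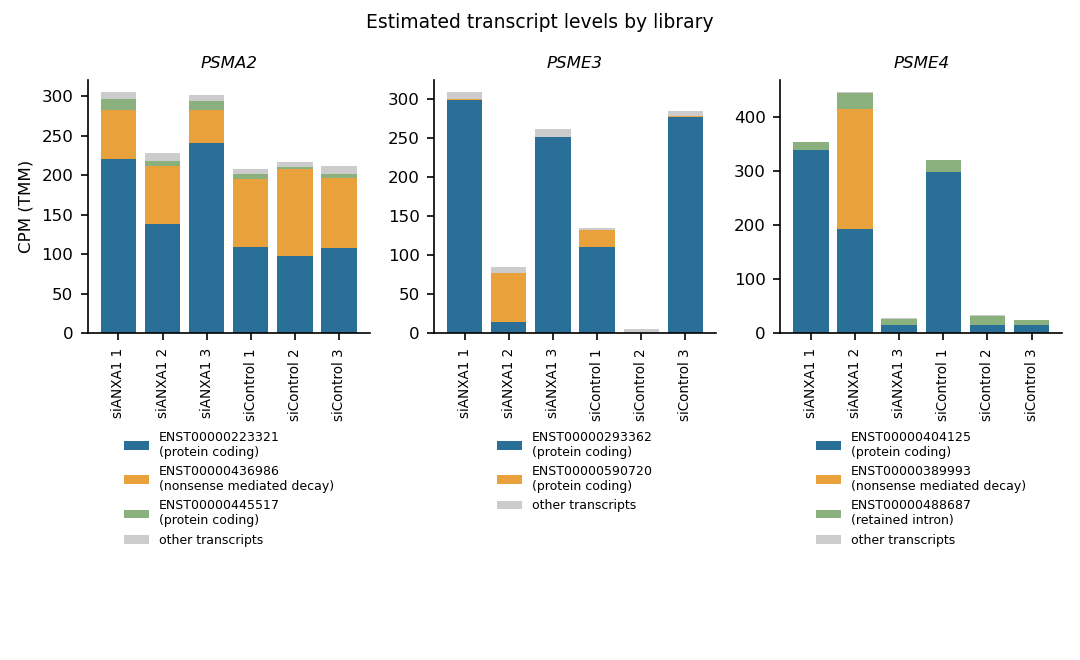
Estimated CPM per library of the main transcripts of PSMA2, PSME3 and PSME4, stacked to the gene total. PSMA2 shows more of its coding transcript in siANXA1 (138 to 241 CPM) than in siControl (97.4 to 109 CPM), while PSME3 and PSME4 differ most between libraries of the same group.

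The assembly factors, chaperones that build the rings and the base, had 0 of 7 past the threshold and 5 positive (median log2 fold change 0.15). PSMG1 and PSMG2, a pair that assembles the alpha ring, differed in their spread. PSMG2 averaged 70.0 ± 2.39 CPM in siANXA1 and 69.4 ± 2.17 CPM in siControl (SD, n = 3 each), whereas PSMG1 read 71.8, 56.8 and 114 CPM in siANXA1 and 53.3, 43.8 and 121 CPM in siControl. PSMG3 and PSMG4, the other pair, had log2 fold changes of 0.21 and 0.19 with overlapping groups. Of the chaperones of the 19S base, PSMD10 (gankyrin) read 53.1, 69.5 and 54 CPM in siANXA1, against 75.4, 77.4 and 58 CPM in siControl, with siANXA1 replicate 2 and siControl replicate 3 crossing (log2 fold change -0.26 ± 0.195, SE; edgeR adjusted p = 0.74). PSMD9 read 44.4, 52.6 and 43.9 CPM against 51.1, 55.6 and 47.4 CPM, also crossing (log2 fold change -0.13), and PSMD5 had a log2 fold change of 0.31. PSMC3IP, which the name pattern also takes, encodes a meiotic recombination factor that binds PSMC3 and is no proteasome gene. It read 29.9, 44.3 and 29.2 CPM in siANXA1 and 38.2, 36.7 and 24.6 CPM in siControl.

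Among 37 partners of the proteasome taken from a list (chaperones, receptors, ubiquitin genes, shuttle factors and transcription factors), 0 passed edgeR, and 22 were positive (59.5%, against 50.5% of all genes). Without overlap, 3 were higher and 3 lower, against 7.41% and 7.24% of all genes, so these counts were near the background. DESeq2 called 2 of the 37, POMP and NFE2L1, against 1.67% of all genes. POMP, the maturation factor that is built into the new core and degraded by it, read 233, 235 and 239 CPM in siANXA1 replicates 1 to 3, against 145, 155 and 173 CPM in siControl replicates 1 to 3. The groups were well apart, and the spread within siANXA1 was small. The log2 fold change was 0.58 ± 0.128 (SE; edgeR adjusted p = 0.591; DESeq2 adjusted p = 0.0175).

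NFE2L1, also called NRF1, the transcription factor that raises proteasome genes when the proteasome is inhibited, read 27.1, 19.1 and 20.9 CPM in siANXA1, against 64.9, 52.4 and 179.6 CPM in siControl. The groups did not overlap, and siControl replicate 3 was far above the rest (log2 fold change -2.14 ± 0.502, SE; edgeR adjusted p = 0.605; DESeq2 adjusted p = 0.00671). In that library 141 CPM lay on the single transcript ENST00000585291, which stood between 0 and 3.75 CPM elsewhere. Without it NFE2L1 read 23.4, 19.1 and 20.5 CPM in siANXA1, against 62.1, 49.9 and 38.2 CPM in siControl, still without overlap. Without siControl replicate 3 the log2 fold change was -1.39. The related factors NFE2L2, the regulator of antioxidant genes, at 80.0, 106 and 142 CPM in siANXA1 against 199.7, 196 and 146 CPM in siControl, and NFE2L3, at 34.8 ± 0.57 CPM in siANXA1 and 47.8 ± 3.78 CPM in siControl (SD, n = 3 each), were also lower without overlap (edgeR adjusted p = 0.62 and 0.607). NFE2L1, NFE2L2 and NFE2L3 made up the 3 of 37 partners that were lower without overlap, a share near the 7.24% of all genes. SEM1, the smallest lid subunit, read 151, 125 and 129 CPM in siANXA1 against 121, 122 and 113 CPM in siControl, just apart. ADRM1, a ubiquitin receptor of the base, read 121, 83.0 and 123 CPM in siANXA1 against 82.4, 79.4 and 166 CPM in siControl, with overlapping groups.

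**Figure D5:**
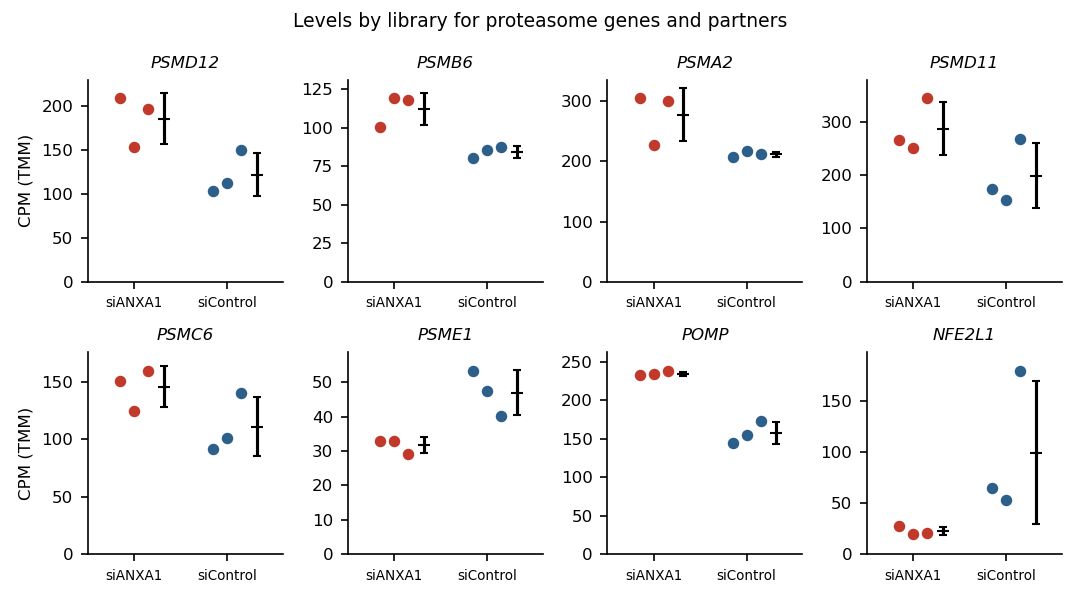
CPM in each library (points) with the mean and SD (n = 3) beside them, in siANXA1 and siControl, for the 5 proteasome genes with a positive fold change and the lowest p, for PSME1, and for the partners POMP and NFE2L1. The groups overlap in PSMD11 and PSMC6 through siControl replicate 3, and in the other panels the siANXA1 libraries lie on one side of the siControl libraries, lower for PSME1 and NFE2L1.

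Of the 456 annotated transcripts of the proteasome genes, 211 are protein coding, 143 retain an intron and 57 are marked for nonsense-mediated decay. The median share of counts on transcripts that are not protein coding was 6.63% in siANXA1 and 6.25% in siControl over the 45 genes tested, against 4.93% and 4.79% over 12993 protein coding genes tested. The share did not overlap between groups in 6 genes that were higher in siANXA1 (PSMA1, PSMB6, PSMC5, PSMC6, PSMD3 and PSME2) and 2 that were lower (PSMA2 and PSMG1), 13.3% and 4.44% of the 45, where the background is 5.82% and 2.95% of protein coding genes. Genes without any such transcript count as 0% in both lists and cannot separate. How many of them the background holds was not counted, so the percentages may not be alike. Some gaps were small, as in PSMD3, at 1.83%, 2.3% and 1.85% in siANXA1 against 1.73%, 1.56% and 1.6% in siControl. PSMG1 had 50.7%, 38.7% and 40.5% in siANXA1, against 62.1%, 57.5% and 55.1% in siControl. PSME2 had 21.8%, 24.5% and 32.5%, against 15.5%, 15.6% and 21.5%. These shares come from estimates that divide reads among overlapping transcripts.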

How the data were processed

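The deposited values are estimated counts for each transcript as whole numbers, without normalization, in 2 tables with the same 1335690 values; this unit was read from the values. What aligned and counted the reads, and with which strand setting, is not given in the sources used here. Per the labels, the submitters' processing notes name mm10, a mouse build, but all 456 transcripts of the proteasome genes had the positions of GENCODE release 29 on GRCh38. The 16014 rows without a gene stayed out of tests and library sizes. No other per-sample columns were present.

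Counts were summed per gene and fitted by edgeR 4.0.16 under R 4.3.3 (filterByExpr, TMM, robust glmQLFit and glmQLFTest, group as the only term) over 17947 genes, two-sided, with Benjamini-Hochberg adjustment over all of them and an adjusted p under 0.05 as the threshold. The test was checked on simulated data, where it missed most changes of 2-fold and made some false calls. A gene that did not pass may therefore still differ. CPM are TMM-scaled. TPM were computed from counts and the transcript lengths in the table. Single ratios had an exact permutation test (SciPy 1.17.1); they were compared as percentages and not logarithms because PSMB9 was 0 in 1 library. Alternatives were DESeq2 1.42.0 on the same filtered genes, 2 other scalings, no filter, a stricter filter (at least 10 counts in 3 libraries, mean at least 5 CPM), protein coding transcripts alone, a block for replicate number, and leaving out single libraries.

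The proteasome genes, their roles and the partner list were chosen with earlier results of these data known. PSMD5, PSMD9 and PSMD10 were placed with the assembly factors. Values per library are given for up to 5 tested genes per direction with the smallest edgeR p and a mean of 5 CPM or more, the catalytic subunits, PSMC3IP, and the partners POMP, SEM1, ADRM1, NFE2L1 and NFE2L2 with the 4 of smallest p; other genes given by library were chosen after their values were seen. Of the proteasome genes, 12 have annotated pseudogenes and 24 overlap an expressed gene on the other strand, so some reads may be divided arbitrarily. Values of some partner and marker genes are not reported here.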

Additional observations from a re-analysis of the deposited data

How the results depend on the processing

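None of the proteasome genes tested passed the threshold under any alternative run. Their median log2 fold change stayed positive, from 0.07 to 0.12 over the scalings, filters, DESeq2 and protein coding transcripts and from 0.05 to 0.25 with 1 library left out. The log2 fold change of ANXA1 passed the threshold with DESeq2 (-1.15, adjusted p = 1.41e-17), with the stricter filter (-1.17, edgeR adjusted p = 0.0435) and without siControl replicate 3 (-1.14, edgeR adjusted p = 0.0487). It did not pass with the other scalings or no filter (edgeR adjusted p = 0.0517 to 0.0613). Nor did it with protein coding transcripts (-1.40, edgeR adjusted p = 0.069) or the block for replicate number (-1.15, edgeR adjusted p = 0.335). With any other single library left out, the edgeR adjusted p was 0.124 to 0.392. The fold change ranged from -1.16 to -1.11 with 1 library left out. The number of genes called, 2 with edgeR, was 258 with DESeq2, 0 with protein coding transcripts and 0 to 7 with 1 library left out. Whether the replicate numbers pair the libraries is not settled. Same-numbered libraries correlated at -0.114, 0.263 and 0.256 in their deviations from the group means, and differently numbered ones at -0.355 to 0.226. Deviations from a mean of 3 libraries depend on one another, so these values cannot decide it. With the replicate number as a block, 0 genes were called and the median of the proteasome genes was 0.13.

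Log2 fold changes near 0 turned sign. PSMB5 (0.02) was -0.04 with upper quartile scaling, -0.00 with no filter, -0.02 with the stricter filter, -0.01 with the block and -0.15 to 0.21 with 1 library left out. PSMB10 (0.02) was -0.02 with upper quartile scaling, -1.01 with protein coding transcripts, -0.09 with the block and -0.45 to 0.39 with 1 library left out. PSMC3IP was -0.01 with upper quartile scaling and -0.16 to 0.16 with 1 library left out. ADRM1 was 0.00 with protein coding transcripts, 0.06 with the block and -0.19 to 0.42 with 1 library left out, and PSMD1 was -0.30 to 0.19. The difference in PSMB10 as a percentage of PSMB7 ranged from -3.2 to 2.44 points with 1 library left out, and that in PSMB8 as a percentage of PSMB5 from -0.152 to 0.0163 points. The causes were not tested. Counts of 0 to 20 limit PSMB8 and PSMB9, and the spread between libraries limits PSME3, PSME4 and PSMC2.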
